A study of Mus musculus and Homo sapiens with 30 samples.

Results

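A set of 44 mouse genes of mitosis and the G2/M transition was followed in the cancer line E0771 and the mammary gland epithelial line NMuMG under 3 media. The genes were taken as a list of symbols that cover entry into mitosis, the spindle, the kinetochore, the spindle checkpoint, anaphase and cytokinesis. All 44 were matched by symbol to 1 Ensembl gene ID each among the 56980 IDs of the mouse count table, and all 44 passed the filter on low counts in both lines. The lowest count of any of them in any library was 475.

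There were 18 mouse libraries of poly(A) RNA, 3 for each line and medium, out of 30 in the series. Both lines grew in DMEM supplemented with FBS (10%), and for NMuMG insulin (10 mcg/ml) was present and the glucose was set at 4.5 g/L. Cells grew for 36 h and then spent 16 h in plain growth medium (control) or in growth medium of which 50% had been replaced by inguinal adipocyte secretome, of the kind labelled lean or of that labelled obese. The secretome is the medium that fat cells have conditioned; the labels do not give the animals it came from, or say whether replicates were separate cultures, so p-values measure only the spread between these libraries. The control held no secretome, and each kind of cell is represented by 1 line. Going by the series title, the study asked how lean fat cells hold back breast cancer through a lipid. Lean against obese is the comparison in which both groups received secretome.

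Total counts lay between 22929035 and 31094119 per library. Every line is labelled as breast cancer. Of 8 epithelial markers, Krt8 alone was above 1 CPM (the count scaled to the size of the library) in E0771, at 254 CPM in control medium, and Krt18, Krt19, Cldn4 and Cldn7 had no count there. NMuMG held 6 of the 8 above 1 CPM in control medium, with Cdh1 at 542 CPM. Summed over 10 markers of fat cells, E0771 held 8.65 to 9.85 CPM in control, 9.41 to 12.4 CPM in lean and 8.56 to 9.52 CPM in obese libraries, and NMuMG 8.04 to 9.97, 12.4 to 12.8 and 7.72 to 9.14 CPM. Lipe held most of each sum, Lep had no count in any library, and Adipoq had at most 3. Summed over 10 mesenchymal markers, of which E0771 had 7 above 1 CPM and NMuMG 9, the lean libraries were lowest in each line, at 2350 to 2600 CPM against 3544 to 3865 CPM with the obese secretome in E0771 and 3013 to 3138 against 3545 to 3739 CPM in NMuMG. Vim held most of each mesenchymal sum in E0771, and Vim and Fn1 together in NMuMG. Single mesenchymal markers went both ways by the calls defined below. With lean over obese, 2 of 7 tested were higher and 5 lower in E0771 (25.8% and 26.9% of all genes). In NMuMG 1 of 9 was higher and 4 were lower (17.6% and 17.4% of all genes). The epithelial sum in NMuMG went the other way, at 7907 to 8186 CPM with the lean and 6832 to 7124 CPM with the obese secretome. Of 7 epithelial markers tested there, 5 were higher with lean over obese and 0 lower. In E0771 1 epithelial marker was tested, and it was not called. The part of these shifts in the results was not tested.

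Mitosis begins when Cdk1, bound to B-type cyclins and freed of inhibitory phosphate by the Cdc25 phosphatases, becomes active. Most of the genes needed for it are transcribed in G2 and are kept low in resting cells by the DREAM complex, which sits on a promoter element called CHR. In dividing cells the MuvB core of that complex joins B-Myb and then Foxm1 to switch the same genes on. The spindle checkpoint delays anaphase until chromosomes are attached, after which the anaphase-promoting complex with Cdc20 marks securin and cyclin B for destruction. RNA levels of these genes are widely used as a readout of how many cells of a population are cycling.

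With the lean secretome, most of the mitotic genes fell in both lines, and further in NMuMG. With the obese secretome hardly any could be told from the control. Between lean and obese secretome, 44 of 44 were lower in NMuMG, with a median log2 fold change of -0.67 (all tested genes: -0.0023). In E0771, 33 of 44 were lower, 1 (Mybl2) was higher and 10 did not pass, with a median of -0.32 (all tested genes: 0.0035). Calls rest on edgeR's quasi-likelihood test and an adjusted p below 0.05, with the Benjamini-Hochberg adjustment taken over the whole table. Over all genes, the called share was 35.0% in NMuMG (17.4% lower, 17.6% higher) and 52.7% in E0771 (26.9% lower, 25.8% higher). The lean and obese libraries did not overlap in 44 of the 44 genes in NMuMG and in 35 in E0771, against 45.2% and 60.1% of all tested genes.

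**Figure D1:**
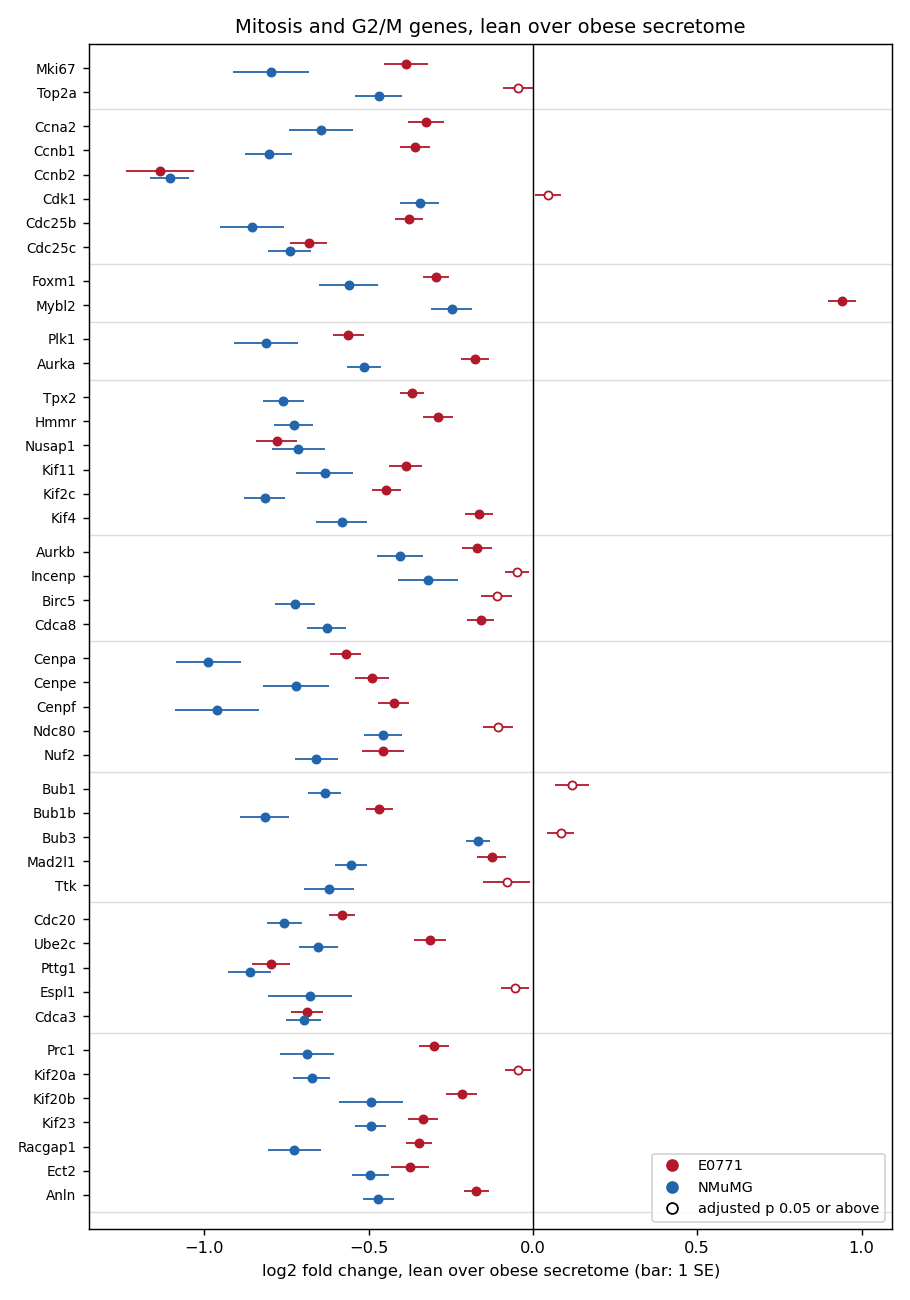
Log2 fold change of lean over obese secretome for each of the 44 genes, in E0771 (red) and NMuMG (blue), with bars of 1 SE and open points for adjusted p of 0.05 or above; grey lines separate the groups by role. All NMuMG points lie below 0, E0771 points lie mostly nearer to 0, and Mybl2 in E0771 lies at 0.94.

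Against control medium the picture was much the same. In NMuMG 43 of 44 were lower with the lean secretome (median -0.68, 19.1% of all genes lower and 38.2% called), and the other, Mybl2, did not pass. In E0771 35 were lower (median -0.30, 29.0% of all genes lower, 27.3% higher and 56.3% called). Mybl2 and Bub1 were higher, and Cdk1, Aurkb, Incenp, Bub3, Mad2l1, Ttk and Kif20a did not pass. Of these, Cdk1 was called higher without control replicate 3 (adjusted p = 0.0488), without lean replicate 3 (0.01) and with scaling by library totals (0.0438). Aurkb was called lower without control replicate 2 (adjusted p = 0.04999, just under the limit) or lean replicate 2 (0.0312). Lean and control libraries did not overlap in 43 of the 44 genes in NMuMG (47.8% of all genes) and 35 in E0771 (61.4%). The lean against obese and lean against control comparisons share the lean libraries, so they are not independent of each other. In these bulk samples, fewer mitotic cells and less of each RNA per cell cannot be told apart.

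Obese secretome against control called 1 of 44 genes in E0771, where 2.61% of all genes were called (1.40% lower and 1.21% higher). It called none in NMuMG, where 5.01% were called (2.66% lower and 2.34% higher). The groups did not overlap in 9 and 8 of the 44, against 21.2% and 21.2% of all genes. The one gene was Cenpf, an outer kinetochore protein of G2 and M, with 241, 237 and 215 CPM in control medium and 191, 209 and 192 CPM with the obese secretome. The obese libraries lay below all control libraries, a step of -0.23 log2 units (SE 0.0466, adjusted p = 0.00876). That call was lost without control replicate 1 (adjusted p = 0.0927), control replicate 2 (0.0769), obese replicate 1 (0.0546) or obese replicate 3 (0.0827). DESeq2 called 2 of the 44 (Cenpf and Mki67) in E0771 and 0 in NMuMG. Over all genes it called 479 of 13813 and 680 of 15014. At an unadjusted p under 0.05, where no share of all genes was taken, there were 6 of the 44 in E0771 and 2 in NMuMG. The NMuMG pair was Ccnb2, at -0.15 log2 units (SE 0.0560, adjusted p = 0.144), and Mybl2, at 0.17 log2 units (SE 0.0620, adjusted p = 0.144). The median log2 fold change of the 44 genes was 0.0086 in E0771 and -0.012 in NMuMG, with a median SE per gene of 0.0457 and 0.0630.

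Most of the genes moved together between the lean libraries, and less so between those of control or of obese medium. The mean log2 CPM of the 44 genes, relative to the control mean of its line, was -0.26, -0.25 and -0.39 in the 3 lean libraries of E0771 (replicates 1 to 3) and -0.64, -0.51 and -0.84 in those of NMuMG. In the obese libraries it was -0.0099, -0.0033 and -0.0034 in E0771 and 0.010, -0.027 and -0.015 in NMuMG. Lean replicate 3 was the lowest library of each line: 3 of 44 genes were above their lean group mean there in E0771 and 0 in NMuMG, while NMuMG lean replicate 2 had 44 of 44 above it. In E0771, 26, 19 and 22 genes were above their group mean in control and 19, 23 and 24 in obese libraries. In NMuMG these were 36, 21 and 17 in control and 34, 11 and 21 in obese libraries. Without lean replicate 3 the median step from obese to lean was -0.26 in E0771 (34 called) and -0.59 in NMuMG (44 called). As a share of all counts, the 44 genes took 0.884% ± 0.0113 (SD, n = 3) in control, 0.741% ± 0.0370 in lean and 0.879% ± 0.00398 in obese libraries of E0771. In NMuMG the shares were 0.804% ± 0.00714, 0.520% ± 0.0571 and 0.791% ± 0.00719.

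**Figure D2:**
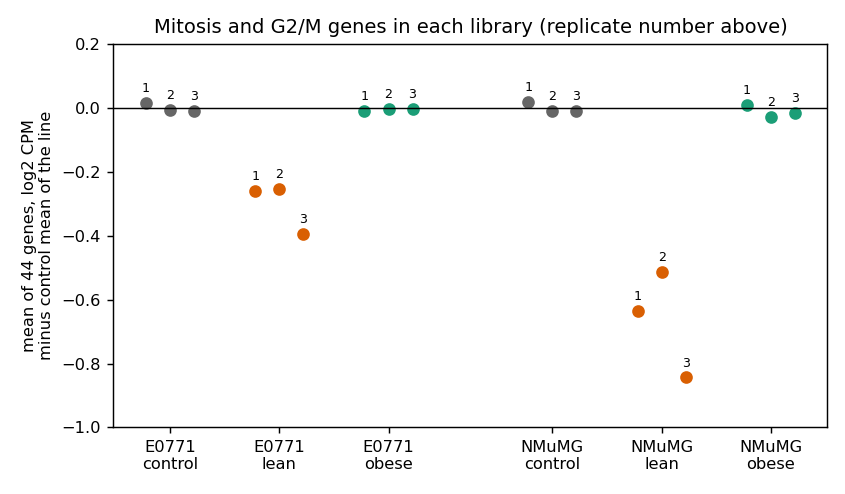
Mean log2 CPM of the 44 genes in each library minus the control mean of the line, with the replicate number above each point. The lean libraries lie between -0.84 and -0.25, and control and obese libraries lie near 0 in both lines.

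Among the cyclins, Cdk1 and its phosphatases, all 6 genes fell with lean over obese secretome in NMuMG and 5 of 6 in E0771. Of all genes, 17.4% were lower in NMuMG and 26.9% in E0771. Ccnb2 (ENSMUSG00000032218), cyclin B2, had the largest fall in both lines. In E0771 it was at 122, 131 and 139.7 CPM in control medium, 62.3, 62.2 and 48.2 CPM with the lean and 116, 131 and 131 CPM with the obese secretome. The lean libraries lay far below all others, and the step from obese to lean was -1.14 log2 units (SE 0.104, adjusted p = 1.81e-05), a fold of 0.455. In NMuMG it was at 116, 116 and 114 CPM, 49.2, 52.5 and 42.6 CPM and 96.1, 109 and 106 CPM in the same order. Again the lean libraries were the lowest, with a step of -1.11 log2 units (SE 0.0599, adjusted p = 6.89e-11). Against control the steps were -1.19 in E0771 and -1.26 in NMuMG. Ccnb1, the main cyclin partner of Cdk1 at mitotic entry, fell by 0.36 in E0771 (adjusted p = 3.48e-07) and by 0.80 in NMuMG (2.27e-05) on the log2 scale. Ccna2, the cyclin of S phase and G2, fell by 0.32 and 0.64, and the phosphatases Cdc25b and Cdc25c fell by 0.38 and 0.68 in E0771 and by 0.86 and 0.74 in NMuMG.

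Cdk1 (ENSMUSG00000019942), the kinase that drives entry into mitosis, parted from its cyclins in E0771. It was at 202, 199 and 206 CPM in control medium, 220.0, 218 and 204 CPM with the lean and 209, 200.3 and 213 CPM with the obese secretome, and the lean and obese libraries overlapped. From obese to lean it moved by 0.046 log2 units (SE 0.0397, adjusted p = 0.344), which did not pass. In NMuMG the lean libraries, at 152, 162 and 132 CPM, lay below the control (189.6, 186 and 185 CPM) and obese libraries (193, 181 and 193 CPM), a step of -0.34 log2 units (SE 0.0594, adjusted p = 0.000592). The steps differed between the lines by 0.41 log2 units (SE 0.0678, adjusted p = 1.21e-05).

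**Figure D3:**
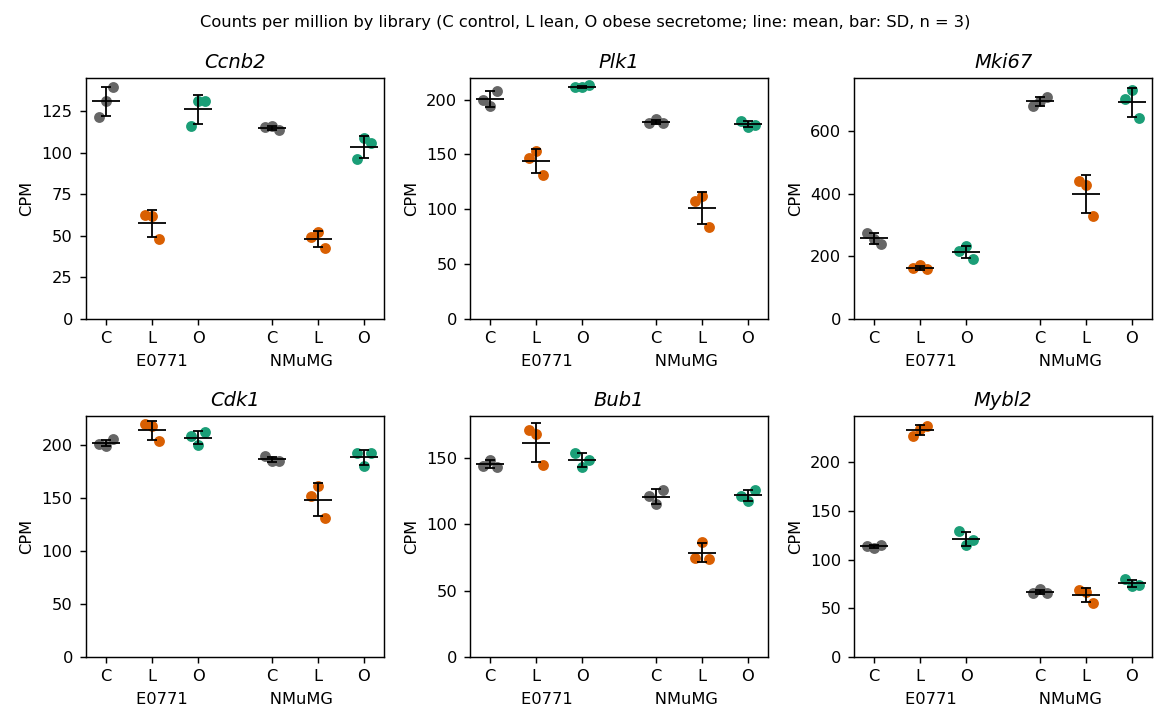
CPM of 6 genes in every library, by medium (C control, L lean, O obese secretome) and line; points are libraries, horizontal lines means and bars SD of 3 libraries. Ccnb2 and Plk1 are low in the lean libraries of both lines, Cdk1 and Bub1 in NMuMG, and Mybl2 is high in the lean libraries of E0771.

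The transcription factors of the set went apart in E0771. Mybl2 (ENSMUSG00000017861), B-Myb, was at 113, 112 and 115 CPM in control medium, 227, 235 and 237 CPM with the lean and 129, 115 and 120.1 CPM with the obese secretome. The lean libraries were the highest without overlap, and the gene rose by 0.94 log2 units (SE 0.0431, adjusted p = 8.36e-14) over obese and by 1.04 log2 units (SE 0.0433, adjusted p = 1.28e-14) over control. In NMuMG it was at 66.1, 69.5 and 65.5 CPM, 68.4, 66.7 and 55.3 CPM and 79.5, 73.2 and 73.5 CPM in the same order. There lean over obese was -0.25 log2 units (SE 0.0623, adjusted p = 0.0045), and lean over control was -0.077 log2 units (SE 0.0623, adjusted p = 0.368). Foxm1, the forkhead factor that switches on G2 and M genes, fell by 0.29 in E0771 and by 0.56 in NMuMG (adjusted p = 5.73e-07 and 0.00255).

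Promoter sequences of 3 genes are shown because they cover the pattern: Ccnb2 fell most in both lines, Cdk1 fell in NMuMG and was not called in E0771, and Mybl2 rose in E0771. They were chosen after their values were seen. Each runs 5′ to 3′ on the strand of the gene, from 250 bases before to 30 bases after the RefSeq start site on GRCm38.p6, and was read from RefSeq. Capitals mark TTTGAA (the CHR letters), CCAAT (the letters bound by NF-Y) and GGCGGGA (letters found in E2F sites), on either strand, so that ATTGG is CCAAT on the other strand.
Ccnb2, chr9:70421525-70421804, minus strand: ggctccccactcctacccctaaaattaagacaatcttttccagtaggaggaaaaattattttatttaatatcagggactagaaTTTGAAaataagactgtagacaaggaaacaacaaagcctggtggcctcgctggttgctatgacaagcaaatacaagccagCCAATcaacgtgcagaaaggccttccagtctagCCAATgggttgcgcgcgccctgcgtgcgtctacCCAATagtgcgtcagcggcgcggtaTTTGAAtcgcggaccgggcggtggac
Cdk1, chr10:69352883-69353162, minus strand: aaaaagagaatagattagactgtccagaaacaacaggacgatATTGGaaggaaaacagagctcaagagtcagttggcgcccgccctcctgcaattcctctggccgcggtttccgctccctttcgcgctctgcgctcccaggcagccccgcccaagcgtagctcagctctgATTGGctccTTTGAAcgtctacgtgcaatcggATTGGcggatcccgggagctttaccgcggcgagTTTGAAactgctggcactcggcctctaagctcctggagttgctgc
Mybl2, chr2:163054385-163054664, plus strand: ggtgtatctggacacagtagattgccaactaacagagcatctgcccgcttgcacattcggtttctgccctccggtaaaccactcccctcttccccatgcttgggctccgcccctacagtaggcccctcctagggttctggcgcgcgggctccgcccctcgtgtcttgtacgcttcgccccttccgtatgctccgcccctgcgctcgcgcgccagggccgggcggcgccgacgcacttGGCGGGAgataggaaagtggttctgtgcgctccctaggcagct
Ccnb2 and Cdk1 both hold TTTGAA and CCAAT in this window, and Mybl2 holds neither and has GGCGGGA.

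Of the 44 genes, 37 had a promoter window of 300 bases in the RefSeq table, which covered 27025 genes. TTTGAA on either strand was in 27 of the 37 (73.0%) and in 20.2% of all genes of the table. CCAAT was in 27 of the 37 (73.0%) against 41.1%, and both were in 23 (62.2%) against 7.97%. Among the 28 that were lower in E0771 with lean over obese secretome, 18 held both, and among the 9 that were not, 5 did. GGCGGGA, added after the Mybl2 sequence was read, was in 6 of the 28 and 5 of the 9, and in 12.7% of all genes. Mybl2 itself is among those 5, so that count is not independent of the choice of letters. None of the 3 patterns contains another. These matches describe letters only.

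Plk1 and Aurka, kinases of mitotic entry, fell in both lines. Plk1, the polo-like kinase of mitotic entry, centrosomes and cytokinesis, was at 146, 153 and 132 CPM with the lean and 212, 211 and 213 CPM with the obese secretome in E0771, beside 199.8, 194 and 208 CPM in control medium. In NMuMG it was at 107, 112 and 84.0 CPM, 180.4, 175 and 177 CPM and 179, 182 and 178 CPM in the same order. The lean libraries lay below all others in each line, with steps from obese to lean of -0.56 log2 units (SE 0.0460, adjusted p = 4.69e-10) and -0.81 log2 units (SE 0.0976, adjusted p = 0.000668). Aurka, the Aurora kinase of centrosomes and spindle poles, fell by 0.18 in E0771 and 0.51 in NMuMG.

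Mki67, which coats mitotic chromosomes and marks cycling cells, was at 275, 256 and 239 CPM in control, 161, 170.3 and 158 CPM in lean and 215, 233 and 192 CPM in obese libraries of E0771. Its lean libraries were the lowest, at -0.39 log2 units (SE 0.0669, adjusted p = 0.000297) from obese and -0.65 log2 units (SE 0.0668, adjusted p = 2.16e-06) from control. Obese libraries stood at -0.27 log2 units (SE 0.0664, adjusted p = 0.0551) from control, which did not pass. In NMuMG it was at 679, 696 and 709 CPM, 440.0, 427 and 328 CPM and 703, 732 and 641 CPM, and fell by 0.80 with lean over obese (adjusted p = 0.00217). Top2a, which untangles sister DNA, stood at -0.045 log2 units (SE 0.0467, adjusted p = 0.444) in E0771 and fell by 0.47 in NMuMG (adjusted p = 0.00128). Against control, Top2a was called lower in E0771 at -0.11 (adjusted p = 0.0441), a call that held in 6 of 16 alternative settings, with adjusted p up to 0.303. The libraries left out in the lost calls were control replicate 1 (0.148), control replicate 2 (0.105), the third lean library (0.303), and of the obese group replicate 2 (0.0661) and replicate 3 (0.0549).

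Spindle assembly genes and kinesins fell with lean over obese secretome, 6 of 6 per line (26.9% of all genes in E0771, 17.4% in NMuMG). Nusap1, which bundles spindle microtubules, was at 52.8, 50.0 and 41.7 CPM with the lean and 81.0, 81.3 and 85.3 CPM with the obese secretome in E0771, and at 45.7, 53.5 and 40.2 CPM and 79.0, 74.6 and 75.1 CPM in NMuMG. The groups did not overlap. The falls were 0.78 and 0.71, and the difference between the lines, -0.050 log2 units (SE 0.116, adjusted p = 0.837), did not pass. The other members of this group, Tpx2 (an activator of Aurora A), Hmmr (a spindle pole protein), Kif11 (Eg5, which pushes poles apart), Kif2c (which takes microtubules apart) and Kif4 (a chromosome-bound kinesin), fell by 0.16 to 0.45 in E0771 and by 0.58 to 0.82 in NMuMG.

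The 4 subunits of the chromosomal passenger complex all fell in NMuMG (17.4% of all genes lower). Of the 4, 2 fell in E0771, where 26.9% of all genes were lower and 52.7% called. In E0771 Aurkb, the kinase of the complex, stepped by -0.17 log2 units (SE 0.0458, adjusted p = 0.00316) and Cdca8, a targeting subunit, by -0.16. Birc5, survivin, was at -0.11 log2 units (SE 0.0470, adjusted p = 0.0514) and Incenp, the scaffold, at -0.049 (adjusted p = 0.269), and neither passed. Without lean replicate 2, Birc5 was called lower there, at -0.17 (adjusted p = 0.00586), and over all alternatives it ranged from -0.17 to -0.054. In NMuMG the 4 ranged from -0.72 (Birc5) to -0.32 (Incenp). All 4 differed between the lines, as did 34.2% of all genes. Birc5 had the largest difference of the 4, 0.63 log2 units (SE 0.0793, adjusted p = 3.09e-07). Against control in E0771, Birc5 was called lower at -0.12 (adjusted p = 0.0363), a call that held in 6 of 16 alternatives. Among them it was lost without control replicate 1 (0.0655), control replicate 3 (0.143), lean replicate 1 (0.0675), lean replicate 3 (0.231) or obese replicate 2 (0.0603).

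At the centromere and kinetochore, 5 of 5 genes fell in NMuMG (17.4% of all genes) and 4 of 5 in E0771 (26.9%). Cenpa, the histone H3 variant that marks centromeres, fell by 0.57 (adjusted p = 5.25e-10) in E0771 and by 0.99 (0.000142) in NMuMG. Cenpf was at 98.6, 104 and 74.8 CPM with the lean and 176, 193 and 170.5 CPM with the obese secretome in NMuMG, without overlap, and fell by 0.96. In E0771 it was at 148, 152 and 141 CPM with the lean secretome, below all obese libraries, and fell by 0.42. Cenpe, a kinetochore motor, and Nuf2, the partner of Ndc80, fell by 0.49 and 0.46 in E0771 and by 0.72 and 0.66 in NMuMG. Ndc80, which binds microtubules, was at -0.11 log2 units (SE 0.0466, adjusted p = 0.059) there and fell by 0.46 in NMuMG.

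The spindle assembly checkpoint differed between the lines in all 5 of its genes, as did 34.2% of all genes. With lean over obese, 17.4% of all genes were lower in NMuMG and 26.9% in E0771. In NMuMG all 5 fell with lean over obese, from -0.82 for Bub1b (BubR1, which holds back the anaphase-promoting complex) to -0.17 for Bub3 (which brings Bub1 and BubR1 to kinetochores). In E0771 Bub1b fell by 0.47 and Mad2l1, which sequesters Cdc20, by 0.13, while Bub1, Bub3 and Ttk did not pass. Bub1, a checkpoint kinase, was at 144, 149 and 143 CPM in control, 172, 168 and 145 CPM in lean and 154, 143 and 149 CPM in obese libraries of E0771. Lean replicates 1 and 2 were the highest, and lean replicate 3 lay among the other libraries. The step from obese to lean was 0.12 log2 units (SE 0.0517, adjusted p = 0.0573), and that from control was 0.15 log2 units (SE 0.0518, adjusted p = 0.0164). The latter lost its call when control replicate 1 was left out (adjusted p = 0.0587), lean replicate 1 (0.11) or lean replicate 2 (0.081). In NMuMG Bub1 was at 122, 115 and 126 CPM, 74.6, 86.9 and 74.2 CPM and 122, 118 and 126 CPM in the same order. The lean libraries there were the lowest, with a step from obese to lean of -0.63 log2 units (SE 0.0511, adjusted p = 1.21e-09). Ttk (Mps1), which starts checkpoint signalling, was at -0.080 in E0771 (adjusted p = 0.371) and fell by 0.62 in NMuMG.

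Genes grouped under anaphase onset, with Cdca3 placed among them, fell in NMuMG in 5 of 5 cases (17.4% of all genes). The count in E0771 was 4 of 5 (26.9% of all genes). Pttg1, securin, the inhibitor of separase, was at 83.0, 90.9 and 89.9 CPM in control, 55.0, 53.3 and 46.5 CPM in lean and 85.4, 89.8 and 93.2 CPM in obese libraries of E0771. Its lean libraries lay below all others, with a step from obese to lean of -0.80 log2 units (SE 0.0580, adjusted p = 1.09e-10). In NMuMG it was at 38.3, 39.8 and 39.5, 22.2, 21.2 and 19.0 and 34.6, 41.3 and 37.7 CPM in the same order, a step of -0.86 log2 units (SE 0.0653, adjusted p = 2.41e-12). Espl1, separase itself, which cuts cohesin, was at 165, 169 and 169.7 CPM in lean and 178, 179 and 166 CPM in obese libraries of E0771, which overlapped. The step there was -0.055 log2 units (SE 0.0423, adjusted p = 0.293). In NMuMG Espl1 was at 82.3, 78.4 and 57.6 and 119, 119 and 112 CPM and fell by 0.68 (adjusted p = 0.00682). Cdc20, the activator of the anaphase-promoting complex, fell by 0.58 in E0771 and 0.76 in NMuMG, and Ube2c, its ubiquitin-conjugating enzyme, by 0.31 and 0.65. Cdca3, which was placed in this group but promotes mitotic entry, fell by 0.69 and 0.70.

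Of 7 genes of the midzone and cytokinesis, 7 fell in NMuMG (17.4% of all genes) and 6 in E0771 (26.9%). The exception was Kif20a (MKLP2), a midzone kinesin, at 207, 200.4 and 218 CPM in control, 208, 209 and 209 CPM in lean and 218, 219 and 209 CPM in obese libraries of E0771. These overlapped, and the step from obese to lean was -0.046 log2 units (SE 0.0391, adjusted p = 0.342). In NMuMG it was at 300.0, 301 and 286 CPM, 181, 203 and 166 CPM and 296, 286 and 295 CPM, the lean libraries lay lowest, and it fell by 0.67 (adjusted p = 9.52e-07). Kif23 and Racgap1, which form centralspindlin, fell by 0.33 and 0.35 in E0771 and by 0.49 and 0.73 in NMuMG. Prc1, which bundles midzone microtubules, Kif20b, a kinesin of late cytokinesis, Ect2, which activates RhoA, and the ring scaffold Anln fell by 0.17 to 0.37 in E0771 and by 0.47 to 0.69 in NMuMG.

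The 2 lines were then compared in 1 fit of the 18 libraries, which tests the difference of their log2 fold changes (E0771 minus NMuMG). For lean over obese, the difference was called in 34 of 44 genes, all positive, against 34.2% of all genes (18.8% positive, 15.5% negative). A positive difference means that the gene's log2 fold change was lower in NMuMG than in E0771. It does not describe the level of the gene. For lean over control it was also 34 of 44, all positive, against 34.5% (19.4% positive, 15.1% negative). For obese over control it was 0 in edgeR, against 1.69% of all genes (1.06% positive, 0.623% negative). It was also 0 in DESeq2, which called 422 of 16529 genes. At an unadjusted p under 0.05, where no share of all genes was taken, it was 0 as well. The largest differences for lean over obese were in Mybl2 (1.20 log2 units, SE 0.0767, adjusted p = 2.22e-13) and Bub1 (0.77 log2 units, SE 0.0823, adjusted p = 5.29e-08). Kif20a (0.64 log2 units, SE 0.0650, adjusted p = 1e-09) and Espl1 (0.64 log2 units, SE 0.130, adjusted p = 0.00149) came next. For lean over control they were in Mybl2 (1.14), Bub1 (0.80), Kif20a (0.72) and Ttk (0.63, adjusted p = 2.03e-05).

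The 10 genes whose lean over obese difference did not pass were Ccnb2, Cdc25c, Plk1, Nusap1, Kif11, Cenpe, Nuf2, Pttg1, Cdca3 and Ect2. For Ccnb2 the difference was -0.014 log2 units (SE 0.141, adjusted p = 1) and for Cdca3 0.027 log2 units (SE 0.0742, adjusted p = 0.872), while for Plk1 it was 0.27 log2 units (SE 0.108, adjusted p = 0.0712). Set side by side over the 44 genes, the obese to lean steps of both lines gave r = 0.738 (Pearson) and 0.743 (Spearman), as a description. The control to obese steps gave 0.185 and 0.124. The genes are not independent of each other, and the lines share no library.

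**Figure D4:**
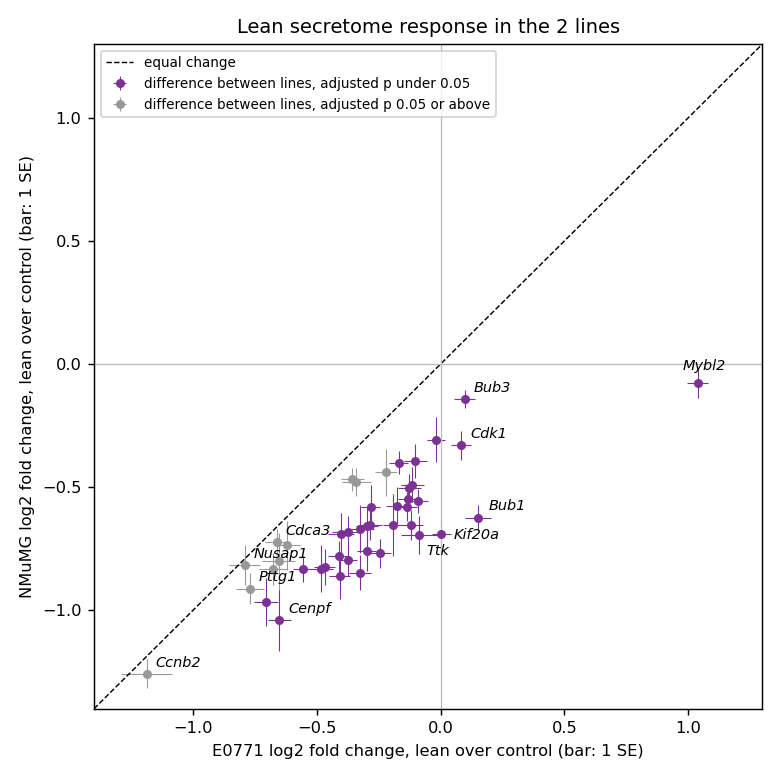
Log2 fold change of lean secretome over control in E0771 (horizontal) and NMuMG (vertical), 1 point per gene with bars of 1 SE; purple marks a called difference between the lines and the dashed line marks equal change. All 44 points lie below the dashed line, with Mybl2 at 1.04 in E0771 and -0.077 in NMuMG, and Ccnb2 lies close to it.

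In control medium the lines differed in the level of most of these genes, at a share near that of all genes. CPM in this comparison are scaled over all 18 libraries together, and so differ from those above, which are scaled within each line. E0771 against NMuMG called 34 of 44 (22 higher and 12 lower in E0771), where 80.5% of all genes were called (37.1% higher and 43.4% lower). Cdca3, at 182 ± 4.11 CPM (SD, n = 3) in E0771 and 70.0 ± 3.62 CPM in NMuMG, had the largest positive difference, 1.38 (SE 0.0510, adjusted p = 6.51e-24), followed by Cdc25b (1.37), Pttg1 (1.04) and Cdca8 (0.88). Ttk, at 27.9, 27.1 and 24.8 CPM in E0771 and 84.5, 77.6 and 79.6 CPM in NMuMG, had the largest negative one, -1.59 (SE 0.0737, adjusted p = 6.33e-18). It was followed by Mki67 (-1.56), at 245 ± 16.0 CPM in E0771 and 721 ± 15.5 CPM in NMuMG, Kif23 (-1.18) and Ect2 (-1.09). With the lean secretome, 32 were higher in E0771 and 6 lower, and the median difference moved from 0.16 to 0.56 (81.8% of all genes called, 38.3% higher and 43.5% lower). With the obese secretome they were 24 and 11, with a median of 0.17 (80.7% called, 36.8% higher and 43.9% lower). Line and growth medium cannot be told apart in these levels, nor in the differences of response between the lines given above. The labels name insulin for NMuMG alone and give no glucose for E0771. With libraries scaled by their totals alone, the median of all genes in control medium moved from -0.077 to 0.034 and the split of the 44 from 22 and 12 to 29 and 10. The median of the 44 then was 0.27 in control, 0.66 in lean and 0.29 in obese medium.

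Within each line the genes kept close company. The correlation of each gene's log2 CPM with the mean of the others over the 9 libraries had a median r of 0.993 in NMuMG, with 0.684 for Mybl2 as the lowest. In E0771 the median was 0.959, but Mybl2 (-0.968), Bub3 (-0.815), Cdk1 (-0.550), Bub1 (-0.538) and Kif20a (-0.0121) ran against or apart from the rest. These values describe libraries that share their medium. Outside the set, the genes whose log2 CPM, centred within line, was most like the mean of the 44 over the 18 libraries were Tacc3 (r = 0.993), Prr11 (0.992), Phf19 (0.985), Ckap2l (0.984) and Kif14 (0.982).

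Most genes of a wider mitosis list were also lower with the lean secretome. Of a further 80, 76 were lower and 1 higher with lean over obese in NMuMG (17.6% of all genes higher, 17.4% lower), with a median log2 fold change of -0.49. Among genes whose log2 CPM averaged 2 or more, the limit for all genes named from these lists, the largest falls were in Aspm (-1.19), Fam83d (-0.96) and Pimreg (-0.94), and the rise was in Zwint (0.26). In E0771, 51 of 79 tested were lower and 7 higher (25.8% of all genes higher, 26.9% lower), with a median of -0.21 and with Pimreg (-1.04), Cenpm (-1.01) and Pif1 (-0.93) lowest and Zwint (0.54), Ska1 (0.28) and Trip13 (0.25) highest. Among 17 subunits and partners of the anaphase-promoting complex, which is needed to leave mitosis, 9 were lower and 1 higher in E0771. In all, the called share there was near the 52.7% of all genes. By direction, 26.9% of all genes there were lower and 25.8% higher. Anapc2 (-0.76), Anapc13 (-0.60) and Anapc15 (-0.58) were lowest and Anapc10 (0.20) was the one higher. In NMuMG 8 were lower, against 17.4% of all genes, and none was higher, with the E2 enzyme Ube2s (-0.44), the activator Fzr1 (-0.35) and Anapc15 (-0.32) lowest.

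Genes of the G1/S transition and replication, the stage before G2, split differently in the lines. Of 35 G1/S and replication genes, 18 were higher and 7 lower with lean over obese in E0771 (25.8% of all genes higher, 26.9% lower), with a median of 0.14. Among the higher were Prim1 (0.57), a primase subunit, and Mcm10 (0.54), a replication initiation factor, and the lowest were Tk1 (-0.58), Cdk4 (-0.34) and Mcm7 (-0.32). In NMuMG 5 were higher and 18 lower (17.6% of all genes higher, 17.4% lower), with a median of -0.12. The higher were the cyclins Ccnd2 (0.91), Ccne1 (0.55), Ccnd1 (0.20) and Ccnd3 (0.20) and the kinase Cdk6 (0.11), with Gins1 (-0.49), Mcm7 (-0.42) and Tk1 (-0.40) lowest. The difference between the lines was called in 28 of the 35, 23 of them positive, against 34.2% of all genes called and 18.8% positive. Among 24 brakes on Cdk1 and G2 checkpoint genes, 10 were higher and 9 lower of 22 tested in E0771 (25.8% of all genes higher, 26.9% lower). The Cdk inhibitor Cdkn1a (p21) was at 1.03, Cdc25a at 0.59 and Chek1 at 0.46, with Ccng2 (-1.35), Cdkn3 (-0.66) and Cdkn2d (-0.62) lowest. Cdc25a is in this list but is a Cdc25 phosphatase, which removes inhibitory phosphate, and so is not itself a brake. In NMuMG 8 were higher and 10 lower (17.6% of all genes higher, 17.4% lower), with Btg2 (0.57), Gadd45b (0.45) and Gadd45g (0.45) highest and Cdkn3 (-1.04), Cdkn2d (-0.77) and Cdkn1b (-0.57) lowest. Of 21 factors of MuvB, DREAM, NF-Y and the E2F family, 5 were higher and 5 lower of 20 tested in E0771, shares near those of all genes (25.8% higher, 26.9% lower). The higher were E2f6 (0.53), E2f2 (0.34), E2f1 (0.33), Rbbp4 (0.15) and E2f3 (0.15). The lower were Nfya (-0.66), Rbl2 (-0.48), E2f5 (-0.29), Tfdp2 (-0.22) and E2f8 (-0.096). In NMuMG 1 (E2f6, 0.19) was higher and 9 were lower (17.6% of all genes higher, 17.4% lower), with E2f8 (-0.37), Nfyc (-0.37) and E2f5 (-0.30) lowest.

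**Figure D5:**
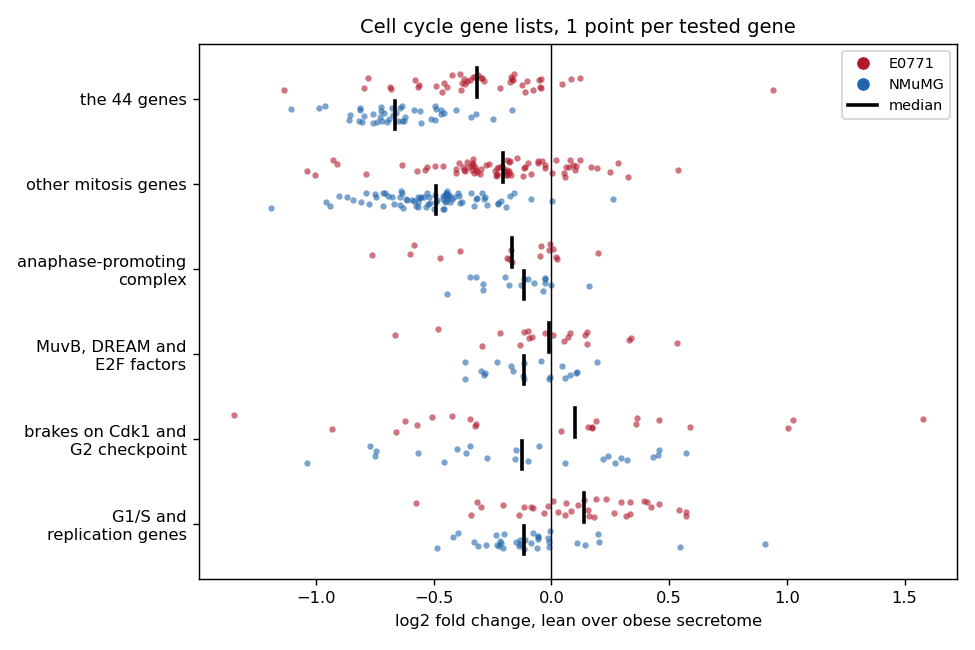
Log2 fold change of lean over obese secretome for the tested genes of 6 cell cycle lists, in E0771 (red) and NMuMG (blue), 1 point per gene, with black bars at the medians. The medians of the G1/S and replication genes are 0.14 in E0771 and -0.12 in NMuMG, whereas those of the mitosis genes are below 0 in both lines.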

How the data were processed

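Directional poly(A) libraries were sequenced with paired 150 bp reads, per the labels' protocols. The authors deposited raw counts per Ensembl gene ID, which were checked to be whole numbers with differing totals. The submitters' processing notes name cutadapt 1.16, STAR 2.7.9a, featureCounts 1.6.3 and GRCm39; the strand setting of the counting is not given in the sources used here, so antisense reads may be included. Symbols came from GENCODE M21 and promoters from RefSeq, both on GRCm38, another build than the counts', so coordinates are printed for RefSeq promoters alone; 52073 of 56980 IDs had a symbol. Named pseudogenes of Ccnb1, Ccnb2 and Kif4 held at most 37 counts in any library. The human SkBr3 libraries were not used.

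Each line was fitted alone with 3 media, and both together for differences between lines, in edgeR 4.0.16 under R 4.3.3 (filterByExpr, TMM, robust quasi-likelihood F test). Benjamini-Hochberg adjustment ran over all genes tested: 13813 in E0771, 15014 in NMuMG and 16529 together. CPM are TMM-scaled within each line, or over all 18 libraries where the lines are compared. Log2 CPM used a prior count of 2. Alternatives were DESeq2 1.42.0, its size factors, library totals alone, no filter, a replicate block, a minimum change of 0.5, other sets of libraries and leaving out each library. The pipeline was tested on simulated data. None of the 18 replicate pairs was as close as counting error (chi-square over its degrees of freedom 2.30 to 8.48).

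The 44 genes, the lists, their grouping by role and the tests were chosen with earlier results of these data known. Genes named with values were a set of 14 central members, the 4 largest increases and decreases among called members of each comparison, members of counts of 5 or fewer and in each list the 3 largest called changes either way among genes at a log2 CPM of 2 or more. Other members were named to complete the account of their role group. One gene that this rule names in a list is not reported here.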

Additional observations from a re-analysis of the deposited data

Results flagged for a closer look

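The response to lean over obese secretome differed between E0771 and NMuMG, by the test of the difference itself, in 34 of 44 genes. Of all genes, 34.2% differed. The response to lean over control differed in 34 of 44, against 34.5% of all genes. On the log2 scale (E0771 minus NMuMG), the lean over obese difference was 1.20 in Mybl2, 0.77 in Bub1, 0.64 in Kif20a, 0.64 in Espl1 and 0.63 in Birc5. It was 0.46 in Ccnb1, 0.44 in Top2a, 0.43 in Cenpa, 0.43 in Mki67 and 0.41 in Cdk1. Smaller differences were 0.36 in Bub1b, 0.35 in Aurka, 0.34 in Ccna2, 0.28 in Foxm1, 0.25 in Aurkb and 0.19 in Cdc20. The lean over control difference was 1.14 in Mybl2, 0.80 in Bub1, 0.72 in Kif20a and 0.63 in Ttk. These tables of differences share the lean libraries, and line and growth medium cannot be told apart in them. Lean replicate 3 had the lowest mean of the 44 genes in each line, and leaving out 1 library gave between 29 (without E0771 lean replicate 2 or NMuMG lean replicate 3) and 39 (without NMuMG lean replicate 2) called differences for lean over obese.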

How the results depend on the processing

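The counts of called genes among the 44 for lean against obese and lean against control held within 1.5 times under other scalings, no filter, DESeq2, other sets of libraries and the replicate block. Leaving out 1 library gave 33 to 35 (lean against obese) and 33 to 37 (lean against control) in E0771, and 43 to 44 and 42 to 43 in NMuMG. Requiring a change of at least 0.5 on the log2 scale left 9 and 11 in E0771, where most changes were smaller. With that minimum there remained 7 and 7 differences between lines, and 17 and 19 level differences in control and obese medium. The share of all genes that pass this minimum was not taken, so these counts cannot be set against it.

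Obese against control in E0771 had 1 call. It gave 0 with all 18 libraries in 1 fit or with a change of at least 0.5, 2 (Cenpf and Mki67) with DESeq2, no filter or the replicate block, and 0 to 3 without 1 library, the highest without control replicate 3 or lean replicate 3. In NMuMG there was no call, 2 (Ccnb2 and Mybl2) with no filter or with the compared groups alone, 1 (Mybl2) with the replicate block and 0 to 2 without 1 library, the highest without lean replicate 3. The cause was not tested. Over all genes, the E0771 count of 360 was 626 with no filter and 79 to 601 without 1 library, low without control replicate 1 or 2 or obese replicate 1 or 3 and high without lean replicate 3. The NMuMG count of 752 (352 higher, 400 lower) was 484 with all 18 libraries, 267 higher and 479 lower by library totals, and at least 384 without 1 library, low without control replicate 1 or 2 or obese replicate 1 or 3. The interaction count of 279 was 428 with no filter, 422 with DESeq2 and at least 149 without 1 library, low without E0771 obese replicate 3 or control replicate 1, or NMuMG control replicate 1 or 2 or obese replicate 1.

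Of 103 values of single genes, 93 kept their direction and side of the threshold in every alternative applied to single genes. The minimum change was applied to the counts of called genes alone. Whether single genes keep their calls under it was not tested. Reversed in sign were Top2a, lean over obese in E0771, at 0.026 without lean replicate 3 (down to -0.091 without other libraries), and Mybl2, lean over control in NMuMG, at 0.011 without lean replicate 3 (down to -0.14 without other libraries); neither had passed. Same-numbered libraries of different media had residual correlations across genes from -0.0942 to 0.110 in E0771 and from -0.0285 to 0.0250 in NMuMG, over 9 pairs each, so the numbers were not used as pairs. In E0771 5 of 9 and in NMuMG 4 of 9 libraries correlated best with their own number. With the replicate block, lean against obese called 34 in E0771 and 44 in NMuMG.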
